A study of Mus musculus with 4 samples.

Results

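The type II hair keratins are the basic keratins of the hair shaft, encoded side by side on mouse chromosome 15. Members were chosen by gene symbol from 6 names, and 5 of them, *Krt81*, *Krt82*, *Krt83*, *Krt86* and *Krt87*, were analysed, out of 32286 features in the series. The other name was not analysed here. The tissue was dorsal skin of R26-tdTomato; Krox20-CreERT mice at P38, given 4-hydroxytamoxifen at P2, so that cells with an active *Krox20* promoter, and their progeny, carried the tdTomato reporter. Spatial transcriptomics (Visium) was run on 4 slices, and every slice carried a section of each of 3 mice. The study set aside a further section for distorted structure. The spot positions used here do not mark sections, so all tissue spots were used and whether they include that section was not tested. The slices thus repeat the measurement on 1 group, there is no untreated group, and every test below measures only the spread between slices.

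Hair shaft cells leave the proliferating matrix at the base of the follicle and move upward as they differentiate into medulla, cortex and cuticle. A type II (basic) hair keratin pairs with a type I (acidic) hair keratin to form the intermediate filaments of the shaft, and these filaments are then embedded in keratin-associated proteins (KAPs), of which the glycine-tyrosine-rich and the high-sulfur proteins are large families. The transcription factors HOXC13 and FOXN1 are known to act on hair keratin genes. *KRT81*, *KRT83* and *KRT86* are the human cortex keratins mutated in monilethrix, *KRT82* is known from the shaft cuticle, and the human counterpart of *Krt87* is a pseudogene.

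The 5 genes lie within 119.63 kb in the GRCm38 build. *Krt87* occupies chr15:101431038-101438804, *Krt81* chr15:101459061-101463751, *Krt86* chr15:101473478-101479986, *Krt83* chr15:101485130-101491512 and *Krt82* chr15:101541214-101550667. *Krt86* is on the plus strand and the other 4 are on the minus strand. Each has 9 exons, and no other annotated gene overlaps any of them. *Krt84* (chr15:101525026-101532820, minus strand), a further type II hair keratin of the same cluster that is not a member, is given for comparison. Because the assay captures the 3′ ends of transcripts, the last 500 bases of each transcript were searched for 50-base stretches shared with other genes. None was found for *Krt81*, *Krt82*, *Krt83* or *Krt86*. For *Krt87*, 240 of 451 stretches (53.2%) also occur in *Gm49425*, so the level of *Krt87* is uncertain, since such reads cannot be assigned to 1 gene of the pair.

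The RefSeq promoter table held 1 member, *Krt82*, and its neighbour *Krt84*. Their sequences are shown because the members rose and fell along the same axis and because HOXC13 is a known regulator of hair keratins. The 250 bases before the transcription start are printed in the direction of transcription, from chr15:101550660-101550909 (*Krt82*) and chr15:101532821-101533070 (*Krt84*) of GRCm38.p6, both on the minus strand. Capitals mark matches, on either strand, to a HOXC13 motif written as TTAATNAA, TTAATNAG, TTAATNGA, TTAATNGG, TTTATNAA, TTTATNAG, TTTATNGA or TTTATNGG.
Krt82: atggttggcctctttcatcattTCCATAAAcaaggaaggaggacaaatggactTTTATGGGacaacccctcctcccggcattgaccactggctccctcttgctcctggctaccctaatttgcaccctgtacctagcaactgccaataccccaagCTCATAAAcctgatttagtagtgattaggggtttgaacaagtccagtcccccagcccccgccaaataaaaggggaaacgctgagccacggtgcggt
Krt84: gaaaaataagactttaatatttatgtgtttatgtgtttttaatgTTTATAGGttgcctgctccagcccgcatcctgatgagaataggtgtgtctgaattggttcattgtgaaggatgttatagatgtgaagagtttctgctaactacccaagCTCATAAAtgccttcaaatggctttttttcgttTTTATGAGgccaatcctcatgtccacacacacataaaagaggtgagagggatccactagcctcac
Both windows held 3 matches, beginning 228, 197 and 96 bases before the start in *Krt82* and 206, 98 and 65 bases before it in *Krt84*. Over the whole windows of 250 bases before and 50 after the start, at least 1 match was present in 18.9% of 32851 promoters. There were 2 or more in 3.45% and 3 or more in 0.633%. Among the 9 hair keratins of both types in the table, 8 held at least 1 match and 4 held 2 or more. The longest stretch in common between the *Krt82* and *Krt84* windows was CCCAAGCTCATAAA, which begins 102 bases before the start in *Krt82* and 104 in *Krt84* and contains 1 of the matches. A match describes letters only, and no binding was measured.

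Between 19393026 and 26910422 unique molecular identifiers (UMIs, the captured transcript molecules) were counted per slice over 6420 tissue spots. Spots with at least 250 detected genes were kept (6411, median 12618 UMIs). The slices shared 1842 spot barcodes, which mark positions of the array and not cells. A spot is a small area that holds several cells, so fewer cells of a type and less RNA per cell cannot be told apart. Depth was counted in grid steps between neighbouring spots, starting at 0 in the region led by the epidermal genes *Lor*, *Krt10* and *Krt1*. That region was picked by an interfollicular epidermis list, so the peak of this list at step 0 was set by the choice. The summed level of a matrix list peaked at step 6 and that of a skeletal muscle list at step 8. The steps thus ran from the surface through the follicle bulbs to the muscle. Slice 1 stood apart. It was the deepest library, and it gave 265 of the 273 spots of 1 region led by *Slc45a3* and *Krtap19* genes but only 65 of the 831 spots of a neighbouring region led by *Atp2c2* and *AU018091*.

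*Krt83*, *Krt87*, *Krt81* and *Krt86* had 175409, 125059, 122219 and 99659 UMIs over the 4 slices, and *Krt82* was far scarcer. Levels are in UMIs per 1000000 UMIs of the slice (CPM), and each molecule is counted once whatever the length of its transcript. *Krt83* stood at 2708, 1934, 1564 and 1156 CPM in slices 1 to 4 (1841 ± 660, SD, n = 4). *Krt87* stood at 1509, 1351, 1357 and 1178 CPM (1349 ± 135) and *Krt81* at 1580, 1376, 1190 and 1085 CPM (1308 ± 217). *Krt86* was at 1591, 982, 828 and 796 CPM (1049 ± 370). *Krt82* was at 10.4, 12, 11.3 and 9.54 CPM (10.8 ± 1.07), from 997 UMIs in all. Slice 1 was the highest of the 4 for each of the abundant members and not for *Krt82*.

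The order by level was thus *Krt83*, *Krt87*, *Krt81*, *Krt86* and *Krt82*, but few neighbours in it were separated. The 10 pairs were compared within slices by an exact two-sided sign-flip permutation test, whose smallest possible p with 4 slices is 1 in 8. *Krt83* exceeded *Krt87* by 0.38 ± 0.38 (log2, SD) in 3 of 4 slices (exact p = 0.25, adjusted over 10 pairs 0.278). *Krt87* and *Krt81* were ordered differently from slice to slice (0.05 ± 0.12, 2 of 4 slices, exact p = 0.5, adjusted 0.5). *Krt81* exceeded *Krt86* by 0.36 ± 0.25 in 3 of 4 slices (exact p = 0.25, adjusted 0.278), the exception being slice 1. *Krt83* exceeded *Krt81* by 0.44 ± 0.28 and *Krt86* by 0.80 ± 0.20, each in 4 of 4 slices (the smallest exact p, adjusted 0.208). *Krt82* was below *Krt86*, the next in the order, with a log2 ratio of 6.55 ± 0.48 between them, again in 4 of 4 slices (the smallest exact p, adjusted 0.208). Without slice 1 the order was the same, and the log2 ratio of *Krt83* to *Krt87* was 0.23.

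All 5 members were low at the surface, rose to a peak in the middle of the follicle and fell again toward the muscle. *Krt81* peaked at step 4 in all 4 slices, with 2690 ± 277 CPM there against 567 ± 47.5 at its lowest, step 7. *Krt86* peaked at step 3 in slice 1 and at step 4 in the others (2315 ± 567 CPM against 379 ± 122 at step 7), which was the steepest profile, at 6.11-fold. *Krt83* peaked at step 5 in slice 2 and at step 4 in the others (3407 ± 1027 CPM against 899 ± 270 at step 7, 3.79-fold). *Krt87* peaked at step 5 in every slice (2615 ± 243 CPM against 664 ± 177 at step 1). *Krt82*, the cuticle keratin, also peaked at step 5 in every slice (19.2 ± 4.08 CPM against 5.67 ± 2.21 at step 1, 3.39-fold). Together the members made up 1.07 ± 0.19% of all UMIs at step 4 and 0.257 ± 0.0427% at step 7. No step was without them.

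**Figure D1:**
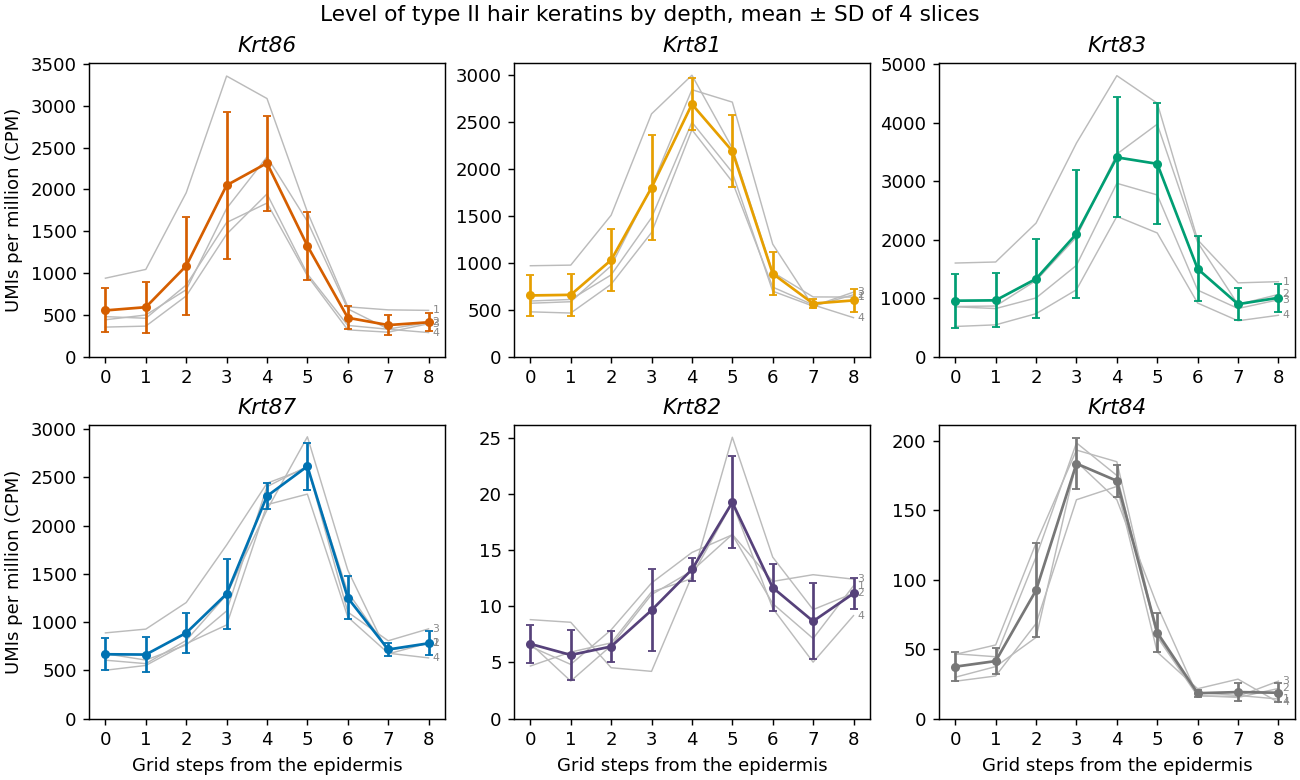
Level (CPM, y axis) of 5 type II hair keratins and of *Krt84* against grid steps from the epidermis (x axis), each panel on its own scale. Grey lines are the 4 slices, numbered at their ends, and coloured points with bars are the mean ± SD. *Krt84* and *Krt86* rise first, *Krt81* and *Krt83* are highest at step 4, and *Krt87* and *Krt82* at step 5.

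Mean depth, the average step weighted by CPM over steps 0 to 8, put the members in the order *Krt86*, *Krt81*, *Krt83*, *Krt87* and *Krt82*, from the surface downward. On this measure an even profile has a value of 4 (the median of 8471 genes was 4.01), and a level that is present at every step pulls each gene toward it. That level was uneven. *Krt82* had 11.1 ± 1.41 CPM at step 8 against 6.65 ± 1.69 at step 0, and *Krt87* 781 ± 123 against 668 ± 163. *Krt83* had 1007 ± 238 and 957 ± 458 CPM. *Krt86* (412 ± 109 and 554 ± 262) and *Krt81* (600 ± 124 and 653 ± 217) were lower at step 8. The part of these end levels in the order was not tested. *Krt86* had a mean depth of 3.47, 3.86, 3.65 and 3.77 steps in slices 1 to 4 (3.69 ± 0.17, SD). *Krt81* was at 3.71, 4.13, 4.03 and 4.05 steps (3.98 ± 0.19), and *Krt83* at 3.90, 4.25, 4.15 and 4.24 steps (4.14 ± 0.16). *Krt87* followed at 3.99, 4.36, 4.35 and 4.29 steps (4.25 ± 0.17). *Krt82* was at 4.41, 4.65, 4.72 and 4.20 steps (4.50 ± 0.24). The ranges of neighbouring genes overlapped, and slice 1 was the shallowest slice for 4 of the 5 members and slice 4 for *Krt82*.

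Within slices, *Krt81* lay deeper than *Krt86* by 0.29 ± 0.06 steps, *Krt83* deeper than *Krt81* by 0.15 ± 0.04 and *Krt87* deeper than *Krt83* by 0.11 ± 0.06. Each of these held in 4 of 4 slices (exact two-sided sign-flip permutation test, the smallest possible p, adjusted over 10 pairs 0.156). *Krt82* lay deeper than *Krt87* by 0.25 ± 0.23 steps in 3 of 4 slices, with slice 4 the other way (exact p = 0.25, adjusted 0.25), and these neighbours did not differ beyond their spread. Each slice was also divided into 3 strips by spot position alone, and the strips were not matched to sections or mice. *Krt86* was shallower than each of the other members in 12 of 12 strips and *Krt83* shallower than *Krt87* in 12 of 12, whereas *Krt83* was deeper than *Krt81* in 8 of 12. With the lowest step's CPM taken off each profile, an alternative chosen after the data had been seen, the order was unchanged and wider, at 3.51 steps for *Krt86*, 3.97 for *Krt81*, 4.27 for *Krt83*, 4.47 for *Krt87* and 4.83 for *Krt82*. Without slice 1 the mean depths were 3.76, 4.07, 4.21, 4.33 and 4.52 steps in the same order.

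**Figure D2:**
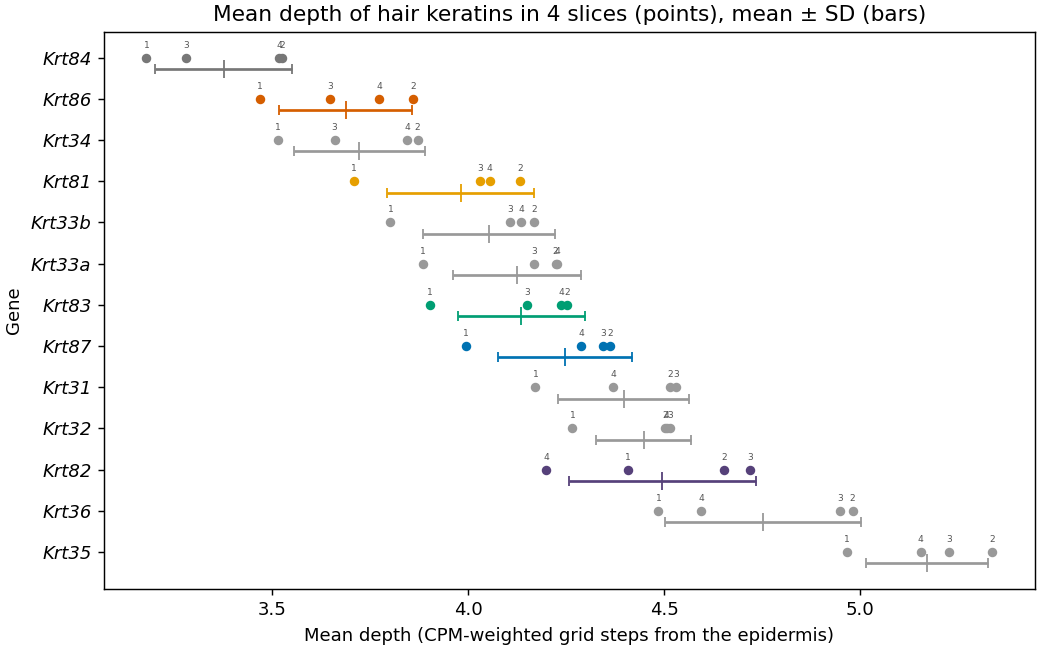
Mean depth (CPM-weighted grid steps from the epidermis, x axis) of hair keratins (y axis), with members in colour and *Krt84* and type I hair keratins in grey. Points are the 4 slices, numbered, and bars are the mean ± SD. *Krt86* lies beside *Krt34*, *Krt81* and *Krt83* beside *Krt33b* and *Krt33a*, and *Krt82* beside *Krt32*.

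The type I partners spanned a wider range of depths. *Krt34* (3.72 ± 0.17 steps), a cortex keratin, lay beside *Krt86*. *Krt33b* (4.05 ± 0.17) and *Krt33a* (4.13 ± 0.16), also of the cortex, lay between *Krt81* and *Krt83*. *Krt31* (4.40 ± 0.17) and the cuticle keratin *Krt32* (4.45 ± 0.12) lay between *Krt87* and *Krt82*. No member was as deep as *Krt35* (5.17 ± 0.16), the type I keratin known as the first of the shaft to appear above the matrix, which peaked at steps 5 and 6. None was as shallow as *Krt84* (3.38 ± 0.17), which stood at 184 ± 18.2 CPM at step 3.

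The make-up of the members' UMIs shifted along the same axis. *Krt86* supplied 28.2 ± 1.93% of them at step 3 and 11.3 ± 1.18% at step 6. *Krt87* went the other way, from 18.4 ± 1.79% to 31.0 ± 3.37%. *Krt83* supplied 28 ± 3.70% at step 3 and 35.7 ± 4.93% at step 6, and *Krt81* 25.4 ± 1.87% and 21.7 ± 2.26%. *Krt82* never supplied more than 0.401 ± 0.0372%. In the epidermis (step 0) the shares were between those of steps 3 and 6 for *Krt86* (19.1 ± 1.53%) and *Krt87* (24.4 ± 2.97%). The levels behind them were near or below those of muscle-led spots (described below). At step 0 *Krt86* had 554 ± 262 CPM and *Krt87* 668 ± 163, against 544 ± 215 and 898 ± 117 in muscle-led spots. *Krt86* at step 6 was also below its muscle-led level, at 466 ± 139 CPM. The make-up at such levels is therefore not read as expression.

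**Figure D3:**
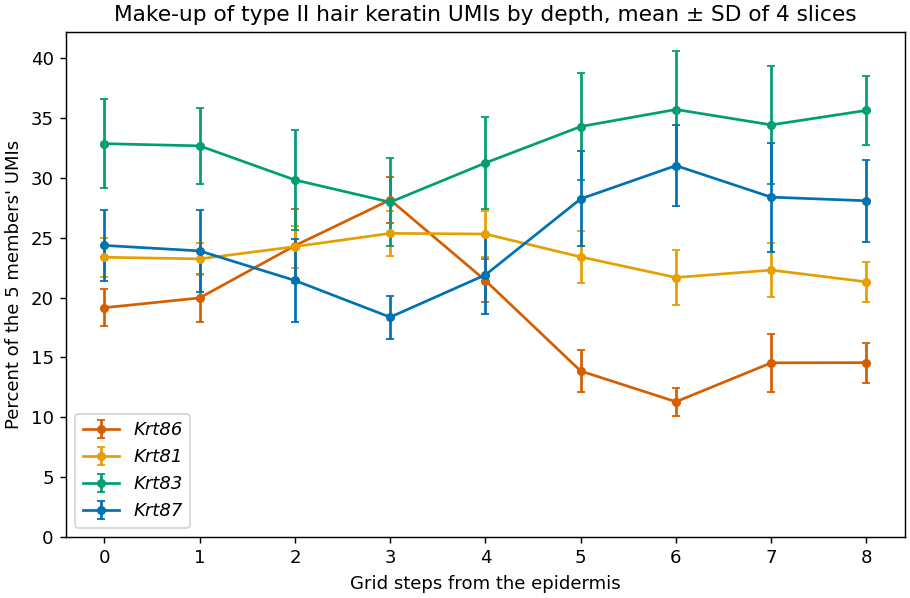
Percent of the UMIs of the 5 members (y axis) supplied by each of the 4 abundant members at each grid step from the epidermis (x axis), as the mean ± SD of 4 slices. *Krt86* is at its highest at step 3 and its lowest at step 6, where *Krt87* is at its highest. *Krt82*, at most 0.401%, is not drawn.

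For tests, the steps were joined into zones, called E (step 0), S (steps 1 and 2), M (steps 3 to 5) and D (step 6 and deeper), UMIs were summed per slice and zone, and 13482 genes were fitted together by edgeR's quasi-likelihood test with Benjamini-Hochberg adjustment at 0.05. From S to M all 5 members rose, where 25.4% of all genes tested were called higher and 27.1% lower. *Krt87* went from 1065, 700, 693 and 665 CPM in S to 2321, 2219, 2131 and 1898 CPM in M, with no overlap, a log2 change of 1.53 ± 0.20 (SE, edgeR adjusted p = 1.50e-05). *Krt82* went from 6.36, 6.37, 5.07 and 6.55 CPM to 14.6, 17.2, 13.9 and 12.8 CPM, a log2 change of 1.33 ± 0.17 (edgeR adjusted p = 1.43e-07). *Krt81* (1.47 ± 0.28, 2.76-fold), *Krt83* (1.45 ± 0.45, 2.74-fold) and *Krt86* (1.20 ± 0.42, 2.30-fold) rose by similar amounts with wider errors, at edgeR adjusted p = 0.000679, 0.0167 and 0.0294. The *Krt86* groups overlapped, at 547 to 1500 CPM in S and 1413 to 2632 CPM in M. The *Krt83* groups overlapped slightly, at 641 to 1949 CPM and 1920 to 4295 CPM.

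In the fit without the slice as a block, the rise of *Krt83* and *Krt86* was the least firm, though both rose within every slice. In slices 1 to 4, *Krt83* went from 1949, 1102, 922 and 641 CPM to 4295, 3267, 2489 and 1920 CPM. *Krt86* went from 1500, 662, 677 and 547 CPM to 2632, 1905, 1413 and 1426 CPM. Without slice 2 the edgeR adjusted p was 0.118 for *Krt83* and 0.177 for *Krt86*. Without slice 3 it was 0.0903 and 0.106, and without slice 4 that of *Krt86* was 0.0798. When the zones were moved 1 step deeper, so that step 3 counted as S, the changes of *Krt81* (0.61) and *Krt83* (0.82) were no longer called and that of *Krt86* was -0.0043. With the slice as a block, all 5 were called higher from S to M.

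From M to D all 5 members fell, where 22.8% of genes were called lower and 27.0% higher. *Krt86* fell the most, from between 1413 and 2632 CPM to between 322 and 586 CPM, a log2 change of -2.18 ± 0.43 (4.52-fold lower, edgeR adjusted p = 0.00100). *Krt81* changed by -1.69 ± 0.28 (adjusted p = 0.000241), *Krt83* by -1.39 ± 0.45 (adjusted p = 0.0223) and *Krt87* by -1.20 ± 0.20 (adjusted p = 0.000150) in the same edgeR fit. *Krt82* fell the least, from 14.6, 17.2, 13.9 and 12.8 CPM to 9.29, 11.5, 12.5 and 7.82 CPM (-0.55 ± 0.14, edgeR adjusted p = 0.00159). The fall of *Krt83* was not called without slice 2 (edgeR adjusted p = 0.107) or slice 3 (0.105).

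From E to S, where 12.4% of genes were called higher and 13.9% lower, none of the 5 members was called by edgeR, and none by DESeq2 or at an unadjusted p under 0.05. The log2 changes were 0.61 ± 0.42 for *Krt86*, 0.38 ± 0.28 for *Krt81*, 0.27 ± 0.45 for *Krt83*, 0.22 ± 0.20 for *Krt87* and -0.12 ± 0.26 for *Krt82*. With the slice as a block, *Krt86* was called higher (0.59, edgeR adjusted p = 0.0109). *Krt84* was called without the block (0.84 ± 0.26, edgeR adjusted p = 0.0291).

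Lists of shaft genes, chosen with earlier results of these data known, are given as counts. Of 8 type I hair keratins tested, none was called from E to S, 6 rose from S to M, and 5 fell from M to D. With the slice as a block, 2 were called higher from E to S (*Krt34* and *Krt33a*), 7 from S to M, and from M to D 7 were lower and 1, *Krt35*, was higher. In the last step *Krt34* changed by -1.96 ± 0.38, *Krt33a* by -1.34 ± 0.30 and *Krt32* by -0.84 ± 0.17, while *Krt35* was at 0.35 ± 0.17 and was not called without the block (edgeR adjusted p = 0.0954, and 0.00941 with it). The median log2 change from M to D was -1.39 over the members and -1.09 over the type I keratins, against 0.06 over all genes tested. Of 8 regulators, 7 rose from S to M (8 with the block). From M to D, *Hoxc13* (-0.33 ± 0.07), *Foxn1* (-0.58 ± 0.14), *Prdm1* (-1.19 ± 0.10) and *Ovol1* (-0.55 ± 0.08) fell, and *Lef1* (0.73 ± 0.09), a Wnt effector of the matrix and precortex, and *Msx2* (0.23 ± 0.08) rose. Of the genes for hardening the shaft and follicle sheaths, *Tgm3* (a transglutaminase), *Padi3* (a peptidylarginine deiminase) and *S100a3* (a calcium-binding protein of the cuticle) rose from S to M and fell from M to D, 3 of 3 tested in both. The inner root sheath keratins *Krt71*, *Krt72* and *Krt73* did the same, and they also rose from E to S (3 of 3 tested). The hardening genes were called from E to S in 1 of 3, and in 3 of 3 with the block.

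Clustering divided the spots into 12 regions, named here by their leading genes. The members were left out of the clustering, but other genes of the same cells were not, so the levels by region are a description, with no test. Members were highest in 2 regions. One (711 spots, median step 4) was led by KAP genes such as *Krtap28-13* and *Krtap4-9*, and the other (774 spots, median step 5) by *Krt32*, *Krtap11-1* and *S100a3*. Of the marker lists, that of the inner root sheath was highest in the *Krt32*-led region (mean log2 fold 1.14). The sheath keratins *Krt71* (13359 ± 637 CPM there, 9866 ± 509 in the KAP-led region) and *Krt73* (1024 ± 75.6 and 484 ± 32.9) were higher there. *Krt72* was not, at 3776 ± 58.3 CPM there and 4100 ± 419 in the KAP-led region. Neither region is therefore shaft alone. *Krt86* had 3583 ± 1205 CPM in the KAP-led and 1472 ± 356 in the *Krt32*-led region, a log2 ratio of 1.26 ± 0.16, positive in 4 of 4 slices. *Krt81* differed by less than its spread, at 3100 ± 703 and 2879 ± 303 CPM (0.08 ± 0.22, positive in 3 of 4). *Krt83* was higher in the *Krt32*-led region, with 4712 ± 1385 against 3208 ± 1396 CPM (-0.61 ± 0.21), as were *Krt87*, with 3942 ± 223 against 1632 ± 334 CPM (-1.29 ± 0.23), and *Krt82*, with 26.1 ± 3.62 against 10.1 ± 0.70 CPM (-1.36 ± 0.21), each in 4 of 4 slices. The order of this ratio was that of mean depth, with *Krt87* and *Krt82* within their spread of each other. The ratio and the mean depth use the same UMIs, and the regions differ in median step, so these orders are not independent. Among the others, *Krt84* (3.23 ± 0.20) and *Krt34* (1.14 ± 0.13) leaned to the KAP-led region, and *Krt35* (-2.08 ± 0.27) and *Krt32* (-1.93 ± 0.11) to the other.

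**Figure D4:**
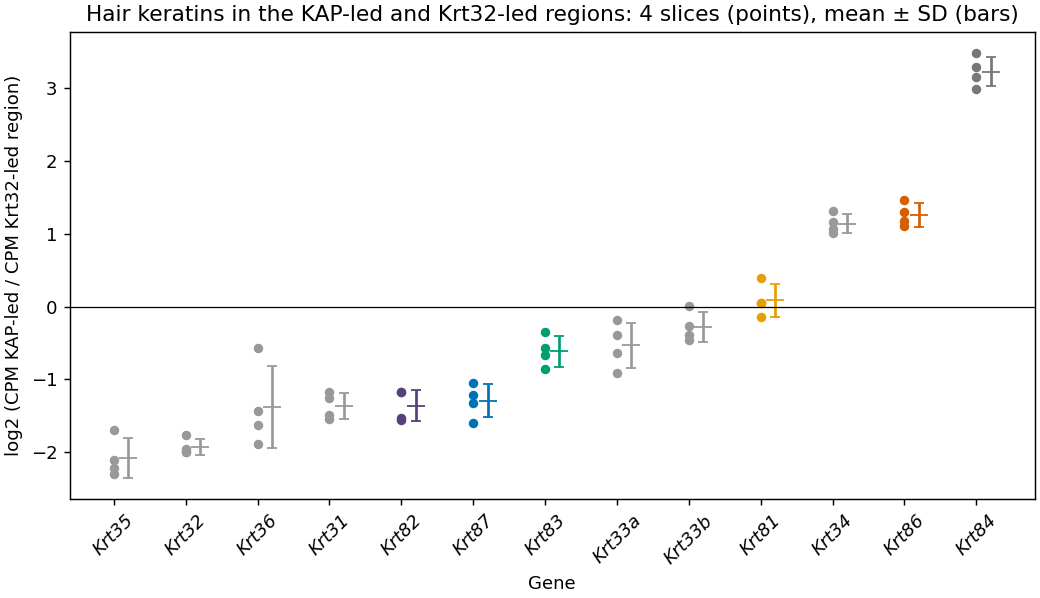
Log2 ratio of CPM in the region led by keratin-associated protein (KAP) genes to CPM in the region led by *Krt32* (y axis) for hair keratins (x axis), members in colour. Points are the 4 slices and bars the mean ± SD. *Krt84*, *Krt86* and *Krt34* lie above 0 in every slice, *Krt81* lies near 0, and *Krt83*, *Krt87* and *Krt82* lie below 0 in every slice.

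The order by level therefore depended on the region. In the KAP-led region *Krt86* had the highest mean log2 level, the log2 ratio of *Krt81* to *Krt86* was -0.18 and that of *Krt87* to *Krt81* was -0.92, so that *Krt87*, next to *Krt83* over the whole tissue, was there below *Krt86*, *Krt81* and *Krt83*. When the spots were divided into 16 regions, all 5 members were highest in a single region of 215 spots led by *Sprr1b*, *Krtap13-1* and *Capn12*. It held 10613 ± 2471 CPM of *Krt83*, 8151 ± 351 of *Krt87*, 7284 ± 575 of *Krt81*, 4196 ± 1104 of *Krt86* and 37.7 ± 6.89 of *Krt82*. In another clustering, all genes whose symbols begin with *Krt*, which include the *Krtap* genes, were left out, but shaft genes under other symbols were not. *Krt86* was then highest in a region led by *Gm11596*, *Gm11595* and *Krtap4-9* (3270 ± 990 CPM). The other 4, now with *Krt81*, were highest in a *Krt32*-led region.

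The 4 abundant members were detected in most spots of every region, from 77.4% (*Krt86*, in a shallow region of 130 spots with a median of 5113.5 UMIs) upward. In the muscle-led region (median step 7), a tissue that should lack them, *Krt81* had 779 ± 128 CPM and was detected in 99.2 ± 1.64% of spots, and *Krt87* had 898 ± 117 CPM and 99.7 ± 0.546%. Shares of spots near these are therefore not read as expression. The muscle-led region also held *Krt35* at 398 ± 57.4 CPM, against 145 ± 37.1 in the epidermal region, and the part of follicle RNA in its values was not tested. For all 5 members the lowest of the 12 regions was the one led by *Mt2* and *Top2a*, a matrix cell cycle signature with the most UMIs per spot (median 25110.5), with 266 ± 14.9 CPM of *Krt81*, 454 ± 92.4 of *Krt83*, 170 ± 45.5 of *Krt86*, 381 ± 32.4 of *Krt87* and 4.94 ± 1.16 of *Krt82*. The scarce *Krt82* had a UMI in 33.4 ± 3.56% of *Krt32*-led spots (median 16370 UMIs) and in 14.2 ± 4.74% of muscle-led spots (median 14173 UMIs). With every spot thinned to 5500 UMIs, which left out 563 shallower spots, the shares were 12.8 ± 1.75% and 5.08 ± 2.06%.

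Spots were also taken for follicle compartments, without using any member, as the highest 5% of each slice by the summed CPM of a marker list. The lists held other genes of the same cells. *Krtap22-2*, on the glycine-tyrosine KAP list, followed *Krt86* across spots (Pearson's r 0.83). Differences between these spots are therefore in part set by how the spots were chosen, and are not separate evidence. Between glycine-tyrosine KAP-rich spots (151) and matrix-rich spots (318), *Krt81*, *Krt83*, *Krt86* and *Krt87* differed by more than in the other 5 comparisons. All 5 were higher in the KAP-rich spots in an edgeR fit where, of 8945 genes tested outside the lists, 28.7% were higher and 28.1% lower. *Krt86* had 8162, 5606, 3605 and 2926 CPM in the KAP-rich spots against 306, 166, 158 and 173 in the matrix-rich spots, a log2 difference of 5.25 ± 0.56 (38.1-fold, edgeR adjusted p = 2.96e-08). *Krt81* was higher by 4.54 ± 0.39 (23.3-fold), *Krt83* by 4.11 ± 0.57 (17.2-fold) and *Krt87* by 3.20 ± 0.30 (9.21-fold), and no group overlapped. *Krt82* had 15, 12.1, 13.4 and 11.0 CPM against 1.96, 3.60, 5.52 and 4.74 CPM, a log2 difference of 2.23 ± 0.43 (4.68-fold, edgeR adjusted p = 1.31e-05). The sizes fell in the same order as the mean depths rose. The KAP-rich spots lay at median step 4 and the matrix-rich spots at step 6, so these orders are not independent. Of 7 type I keratins tested, 6 were higher in the KAP-rich spots and *Krt35* was lower (-1.16 ± 0.20, edgeR adjusted p = 1.91e-05). With library totals in place of TMM scaling the median log2 difference of all genes moved from -0.04 to -0.55, and the 5 members were still called higher.

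High-sulfur KAP-rich spots (161), as against the glycine-tyrosine KAP-rich ones, had less of 2 members, where 0.112% of genes were called higher and 1.03% lower. *Krt87* had 1399, 913, 1260 and 824 CPM against 3178, 3599, 2674 and 1708 CPM, with no overlap, a log2 difference of -1.48 ± 0.28 (edgeR adjusted p = 0.0106). *Krt82* was lower too (-2.62 ± 0.67, edgeR adjusted p = 0.0276), but the high-sulfur spots held 3, 0, 1 and 0 UMIs of it against 9, 7, 8 and 7, so this rests on very few molecules. *Krt83* (-1.70 ± 0.52, adjusted p = 0.122) and *Krt81* (-1.32 ± 0.35, adjusted p = 0.0665) were not called by edgeR, and were with the slice as a block (-1.62, adjusted p = 0.000582, and -1.26, adjusted p = 0.00395). *Krt86* was not called in either (-0.70 ± 0.46, edgeR adjusted p = 0.613, and 0.0559 with the block). The calls of both *Krt87* and *Krt82* were lost without slice 2 or slice 3, and that of *Krt82* also without slice 4.

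Inner root sheath-rich spots (284, median step 4), as against the same glycine-tyrosine KAP-rich spots, differed in 2 members, where 3.80% of genes were called higher and 7.97% lower. *Krt86* was lower by a log2 difference of -2.01 ± 0.48 (edgeR adjusted p = 0.00633) and *Krt81* by -1.43 ± 0.35 (adjusted p = 0.00687). *Krt83* (-1.11 ± 0.51, adjusted p = 0.179) was called by edgeR only with the block (-0.96, adjusted p = 0.00483). *Krt87* (-0.40 ± 0.27) and *Krt82* (0.19 ± 0.35, 15, 33, 21 and 17 UMIs in the sheath-rich spots) were not called in either. Without slice 2 or slice 3, the calls of *Krt86* and *Krt81* were lost. These last 3 comparisons share the glycine-tyrosine KAP-rich spots. The top 5% of more than 1 list took in 393 spots, each given to the list in which it ranked highest, and 136 to 375 spots lay within 10% of the cut for these 4 lists.

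**Figure D5:**
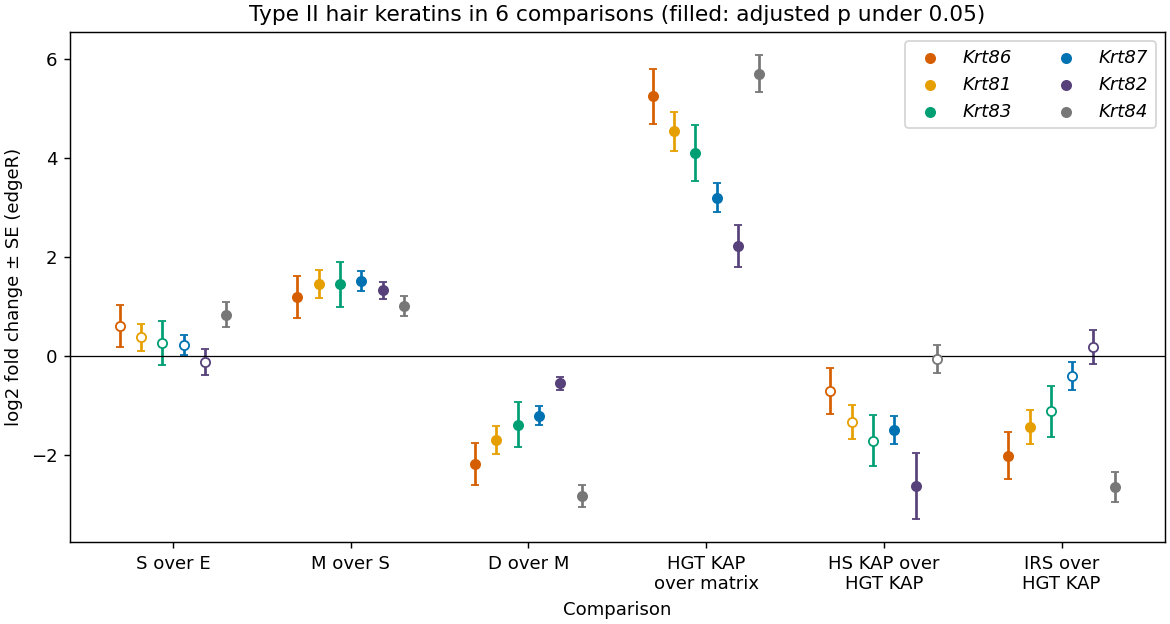
Log2 fold change ± SE from edgeR (y axis) of 5 members and *Krt84* in 6 comparisons (x axis): zones S over E, M over S and D over M, and glycine-tyrosine (HGT) KAP-rich over matrix-rich, high-sulfur (HS) KAP-rich over HGT KAP-rich, and inner root sheath (IRS)-rich over HGT KAP-rich spots. Filled points have an adjusted p under 0.05. All members are filled and above 0 in M over S and HGT KAP over matrix, and filled and below 0 in D over M.

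Across the 6411 spots, the genes whose level followed a member most closely were mostly other shaft genes. Pearson's r was taken on log-scaled levels over 8471 genes with at least 1000 UMIs, as a description, since spots share libraries and depth. *Krt86* was most like *Krt34* (0.85) and *Krtap22-2* (0.83). *Krt81* was most like *Psors1c2* (0.84) and *Krt33a* (0.80), and *Krt83* like *Krt33a* (0.83) and *Krt33b* (0.80). *Krt87* was most like *Krt33a* (0.81), *Krtap11-1* (0.78) and *S100a3* (0.77). Among members r was highest for *Krt81* with *Krt83* (0.80) and *Krt83* with *Krt87* (0.80), and lowest for *Krt86* with *Krt87* (0.58). *Krt82* was below the UMI minimum and was not ranked. *Gm49425*, which shares the end of its transcript with *Krt87*, lay deeper (4.99 ± 0.18 steps) and correlated with *Krt87* at 0.35, and it was highest in a region led by the melanocyte genes *Mlana* and *Dct* (3513 ± 513 CPM).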

How the data were processed

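The authors deposited a table of UMI counts for each slice, which Space Ranger 2.0.1 had made on mm10 (per the file headers for the version and the submitters' processing notes for the build) from fresh-frozen skin, with the positions of the tissue spots. Space Ranger counts molecules once and drops reads that fit more than 1 gene. The members were looked up by symbol among the features, which gave the 5 analysed. The members, lists and tests were chosen with earlier results of these data known.

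A minimum of 250 genes per spot was applied, and doublets were not sought because spots are not single cells. Regions came from Seurat 5.3.0 settings (2000 variable genes, 30 principal components, 20 neighbours; R 4.3.3). A step is a move to 1 of the 6 neighbouring spots, counted from epidermal spots; steps 0 to 8 held at least 20 spots in every slice. Values are mean ± SD over slices. UMIs summed per slice and zone or compartment were tested with edgeR 4.0.16 (TMM, filterByExpr, robust quasi-likelihood F, SE from F), with DESeq2 1.42.0 as an alternative. The code was tested on simulated data. The planned 15 pairs became 10, as 5 members were analysed. Sums of 1 slice come from 1 library, so slices pair them: the mean correlation of deviations within a slice was 0.11 to 0.27 for zones and 0.063 to 0.16 for compartments. Blocked values are given for the members and lists reported where they change a call or a count. Depth and shares were computed in Python 3.11.15 (numpy 2.4.6, scipy 1.17.1, pandas 2.3.3).

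Genes named are the members, type I hair keratins, *Krt84*, inner root sheath keratins, regulators, hardening genes, the 5 genes most like each member, and the leading genes of regions. *Gm49425* was added after its shared sequence had been seen. Of the lists, *Krt40* and *Dsg4* were too low to be tested in the zones, and *Krt74* was not analysed here.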

Additional observations from a re-analysis of the deposited data

Results flagged for a closer look

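Each member's whole-slice CPM, mean depth, and CPM in a zone or compartment was examined over the 4 slices. In 5 of these 50 groups 1 slice lay far from the other 3; chance gives about 1 in 20. In zone S, *Krt86* was at 1500 CPM in slice 1 and at 547 to 677 CPM in the others, and *Krt87* was at 1065 CPM in slice 1 and at 665 to 700 CPM in the others. *Krt86* was also high in slice 1 in matrix-rich spots (306 CPM, against 158 to 173) and in high-sulfur KAP-rich spots (5056 CPM, against 2867 to 3150). Slice 1 was the deepest library and held nearly all spots of 1 region, and the part of either in these values was not tested. *Krt82* in zone S was at 5.07 CPM in slice 3 and at 6.36 to 6.55 CPM in the others, from 108 UMIs in all.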

How the results depend on the processing

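Of 371 alternative values of the members in the 6 edgeR comparisons, 337 kept their direction and side of the threshold, 4 reversed, and none of the reversed values was called. With zones 1 step deeper, *Krt82* from E to S was 0.18 and *Krt86* from S to M was -0.0043. *Krt82* in inner root sheath-rich spots ran from -0.060 (without slice 2) to 0.47 (without slice 1), and *Krt87* there was 0.026 in the top 2.5% of spots. With library totals alone, 1604 genes were higher and 4522 lower in glycine-tyrosine KAP-rich against matrix-rich spots (2565 and 2518 with TMM), 61 were lower in high-sulfur KAP-rich spots (92), and 1805 were higher and 313 lower in inner root sheath-rich spots (340 and 713). In high-sulfur KAP-rich spots, 10 genes were higher and 92 lower in the reported fit, 19 and 174 without a filter, 33 and 222 with the slice as replicate block, 74 and 310 in the top 10% of spots, and 0 and 0 in the top 2.5% by edgeR (175 and 365 at an unadjusted p under 0.05; DESeq2, on the top 5%, called 11 and 125). Leaving out 1 slice gave 1 to 26 higher and 3 to 130 lower. In inner root sheath-rich spots, 523 were higher with the block, 557 in the top 10% and 221 in the top 2.5%, and leaving out 1 slice gave 149 to 261 higher and 430 to 572 lower. The causes were not tested. Each neighbour difference in mean depth, averaged over its units, was positive in 14 of 14 settings, but the settings reuse the same slices. Within them, the difference of *Krt82* and *Krt87* was -0.089 steps in slice 4, and *Krt83* was deeper than *Krt81* in 8 of 12 strips. Taking off the lowest step, chosen after seeing the data, moved the mean depth of *Krt82* to 4.83, of *Krt87* to 4.47 and of *Krt86* to 3.51, by construction. In the KAP-led region the log2 level ratios were 0.89 for *Krt83* over *Krt87*, -0.92 for *Krt87* over *Krt81*, -0.18 for *Krt81* over *Krt86* and 8.41 for *Krt86* over *Krt82*. DESeq2 gave *Krt82* no adjusted p in high-sulfur KAP-rich spots. Depth limits *Krt82*, with 997 UMIs, and 4 slices of the same mice say nothing of the spread between animals.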
